A study of Mus musculus with 14 samples.

Results

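The genes described here are 10 genes of the liver X receptors (LXRs), their targets and cholesterol traffic, chosen by symbol from the 25212 genes of the count table. They are the receptors *Nr1h3* and *Nr1h2*, the transporters *Abca1*, *Abcg1*, *Abcg5* and *Abcg8*, the HDL receptor *Scarb1*, the plasma enzyme *Lcat*, the transfer protein *Pltp*, and the hepatic esterification enzyme *Soat2*. RNA-seq was performed on 14 livers of male C57BL/6 mice made obese with a high fat diet (HFD, 60% of kcal from fat), which was started at 6 weeks of age, given for 12 weeks before the operations and continued afterwards. All 3 groups share this diet. The 5 DIO mice (diet-induced obesity) had no operation, in 4 GB-IL mice the common bile duct was tied and the gallbladder was joined to the ileum, and 5 RYGB mice had a Roux-en-Y gastric bypass; livers were taken at 8 weeks. A sham-operated group was not analysed here, so the operation and its route of bile or food cannot be told apart in a comparison with DIO.

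LXRα (*Nr1h3*) and LXRβ (*Nr1h2*) are nuclear receptors for oxysterols, the oxidised forms in which a cell senses excess cholesterol. Paired with a retinoid X receptor (RXR), they bind repeats of a short half-site and switch on genes that move cholesterol out of the cell. In liver the genes of this set serve both directions of traffic: ABCA1 loads lipid onto nascent HDL, SR-BI (*Scarb1*) takes cholesteryl ester back from HDL, and the ABCG5–ABCG8 dimer pumps sterol across the canalicular membrane into bile.

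The sequences of 2 regions are shown to place the genes described below, and no expression result was tested against them. *Abcg5* and *Abcg8* lie head to head on chromosome 17, and their levels were the most closely correlated of any pair described here. RefSeq also gives *Abcg8* a start site at 84676302, inside the *Abcg5* gene, whose region is not shown. The start site of *Abcg5* at 84683011 and that of *Abcg8* at 84683121 are 110 bases apart. The whole interval between those start sites (chr17:84683012-84683120, plus strand, GRCm38.p6, 109 bases) holds 2 matches to AGATAA, the motif of GATA factors, both as TTATCT on this strand and in capitals. Within the same length before the start site, 3.98% of all 32851 RefSeq promoter windows held at least 1 match on either strand and 0.177% held at least 2. The second region is the 250 bases before the start site of *Abca1* (chr4:53159896-53160145, minus strand, GRCm38.p6), the textbook LXR target, with capitals for its closest match to the LXR element DR4 (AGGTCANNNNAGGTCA, 12 fixed letters, both strands searched).
Abcg5-Abcg8: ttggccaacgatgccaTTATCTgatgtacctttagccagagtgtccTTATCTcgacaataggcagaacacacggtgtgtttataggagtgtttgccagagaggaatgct
Abca1: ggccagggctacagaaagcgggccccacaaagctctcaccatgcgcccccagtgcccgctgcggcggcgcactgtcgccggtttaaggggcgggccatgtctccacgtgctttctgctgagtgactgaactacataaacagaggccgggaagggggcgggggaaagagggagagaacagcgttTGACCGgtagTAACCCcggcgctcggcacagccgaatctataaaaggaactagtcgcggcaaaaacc

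The *Abca1* match, 67 to 52 bases before the start site on the opposite strand (chr4:53159947-53159962), differs from the DR4 letters at 3 places. With at most 2 mismatches, 3.02% of all RefSeq windows (300 bases, of which 50 follow the start site) and 0 of 9 windows of the genes described held a DR4. At most 3 mismatches, a limit set after the first search had been seen, were found in 21.9% of all windows and in 2 of the 9, those of *Abca1* and *Lcat*. The 9 windows belong to 7 genes, and *Abcg1*, *Scarb1* and *Soat2* had none in the table.

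Each library held between 18223135 and 28656631 counts. The livers of the GB-IL group were unlike each other: on the first principal component of all genes (47.9% of the variance) GB-IL livers 1 to 4 lay at 143, 114, 20.4 and -37.5, and the DIO livers lay between -48.6 and -23.5. Hepatocyte markers were abundant in every liver, and none of the 10 listed was at 0 anywhere. GB-IL liver 1 also held 985 CPM of skeletal muscle genes and 421 CPM of pancreas genes, against at most 1.54 and 36.5 CPM in the other livers. In bulk liver, fewer cells of a type and less RNA per cell cannot be told apart.

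None of the 10 genes passed a false discovery rate (FDR) of 0.05 in any comparison, adjusted over the 14252 genes tested with edgeR's quasi-likelihood fit. The 2 that came nearest were the receptor gene *Nr1h2* and the transfer protein gene *Pltp*, both higher in GB-IL, and *Scarb1* stood higher in all RYGB livers than in any DIO liver. In GB-IL relative to DIO, 5 had a higher and 5 a lower fitted level (median log2 fold change 0.15, against 0.039 over all genes tested). There 0 of 10 passed the FDR, which 3.26% of all genes passed. An unadjusted p below 0.05 was found for 2 of 10, both higher, and for 23.1% of all genes, 16.7% higher and 6.43% lower. In RYGB relative to DIO, 4 were higher and 6 lower (median -0.023, all genes 0.012). There 0 of 10 passed the FDR, as did 0% of all genes, and 0 had an unadjusted p below 0.05, against 8.71% of all genes, 5.35% higher and 3.36% lower. In GB-IL relative to RYGB, 0 of 10 passed the FDR, as did 0% of all genes, and 2 had an unadjusted p below 0.05, against 22.1% of all genes, 15.3% higher and 6.77% lower. DESeq2 and limma's voom also called 0 of the 10 in each comparison. Over all genes DESeq2 called 97 in RYGB against DIO and 845 in GB-IL against RYGB, and voom 1690 and 115, where edgeR called 0. The 465 genes that edgeR called in GB-IL against DIO became 0 in a fit of those 2 groups alone. Complete separation of the livers of a pair of groups was seen for 0 of the 10 genes in GB-IL against DIO, beside 4.17% of all genes (2.67% higher, 1.51% lower). In GB-IL against RYGB it was seen for 0 of 10, beside 2.84% (1.27% higher, 1.57% lower). In RYGB against DIO it was seen for 1 of 10, which was higher, beside 3.53% (1.87% higher, 1.66% lower). The intervals are wide, from -0.42 to 0.40 for *Lcat* to -0.23 to 1.43 for *Abcg1* on the log2 scale in GB-IL relative to DIO, so a p above the threshold does not show that levels were equal.

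**Figure D1:**
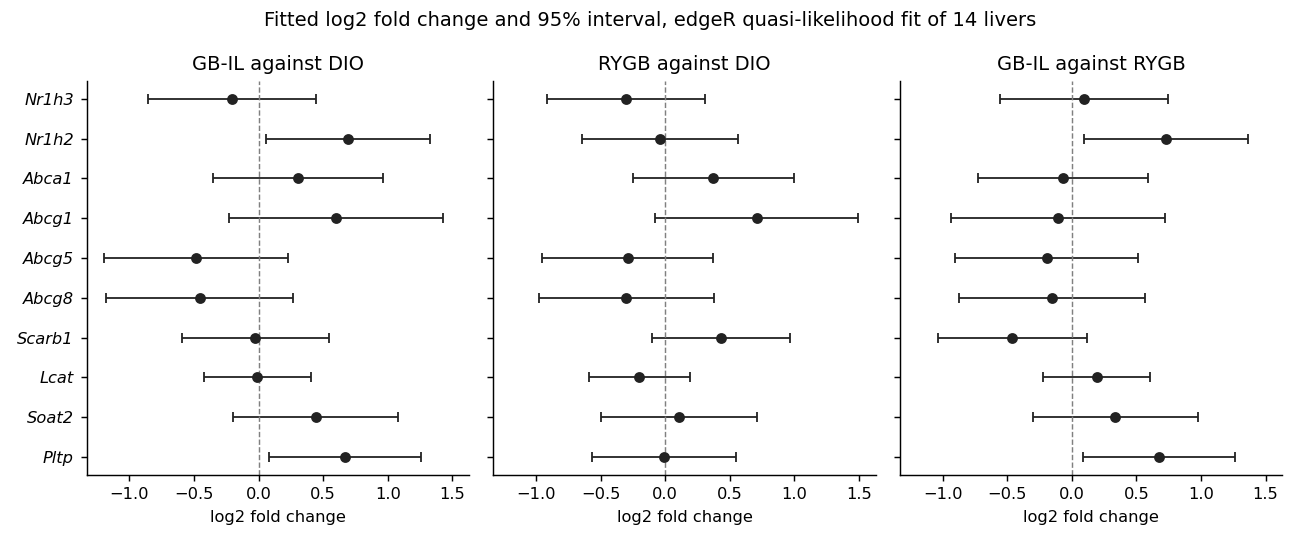
Fitted log2 fold change (x axis) of the 10 genes (y axis) in the 3 comparisons, with 95% intervals from edgeR's quasi-likelihood fit of 14 livers. The intervals of *Nr1h2* and *Pltp* lie above 0 in both comparisons of GB-IL, but no adjusted p is below 0.05 (the smallest is 0.169), and all RYGB intervals against DIO include 0.

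The receptor genes are described first. *Nr1h2* (ENSMUSG00000060601, chromosome 7, 44549616 to 44553951, minus strand on GRCm38) encodes LXRβ, the form found in most tissues. It stood at 30.3, 27.9, 43.8, 40.3 and 34.6 CPM in DIO livers 1 to 5, at 97.1, 68.9, 34.7 and 27.8 CPM in GB-IL livers 1 to 4 and at 43.3, 33.9, 28.6, 30.8 and 35.6 CPM in RYGB livers 1 to 5. GB-IL livers 1 and 2 were above every other liver, whereas GB-IL livers 3 and 4 lay within or just below the DIO range. The log2 fold change in GB-IL relative to DIO was 0.69 (SE 0.299, 95% interval 0.054 to 1.33, adjusted p = 0.187). Relative to RYGB it was 0.73 (SE 0.298, 95% interval 0.093 to 1.37, adjusted p = 0.183). Without GB-IL liver 4 it was 0.91 (adjusted p = 0.0245) relative to DIO and 0.95 (adjusted p = 0.0243) relative to RYGB, but 3572 and 3120 of all genes were then called. Without GB-IL liver 1 it was 0.31 relative to DIO and 0.35 relative to RYGB, and with voom it was 0.16 and 0.31. Over all alternatives the adjusted p relative to DIO lay between 0.0245 and 0.794. RYGB differed from DIO by -0.039 (95% interval -0.64 to 0.56), a value whose sign turned when libraries were scaled by their total counts.

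*Nr1h3* (ENSMUSG00000002108, chromosome 2, 91184061 to 91202834, minus strand) encodes LXRα, the main LXR of liver. Its levels were 93.9, 80.1, 139, 133 and 116 CPM in the DIO livers, 42.2, 124, 141 and 83.2 CPM in the GB-IL livers and 126, 100.3, 85.6, 79.2 and 64.7 CPM in the RYGB livers. The lowest and the highest of all 14 values were both in GB-IL, in livers 1 and 3. Relative to DIO the fitted difference was -0.20 (SE 0.305, 95% interval -0.86 to 0.45, adjusted p = 0.687) on the log2 scale in GB-IL. In RYGB it was -0.30 (SE 0.287, 95% interval -0.91 to 0.31, adjusted p = 0.796). Without RYGB liver 5 the RYGB value was -0.19. Without GB-IL liver 1 the GB-IL value was 0.036. Both operated groups overlapped with DIO, and GB-IL differed from RYGB by 0.097 (95% interval -0.55 to 0.75).

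The counts of *Nr1h3* per count of *Nr1h2* do not depend on the scaling of a library. They were 3.104, 2.87, 3.18, 3.303 and 3.35 in DIO, where the 5 livers were close to each other, and 2.92, 2.96, 2.996, 2.57 and 1.82 in RYGB. In GB-IL they were 0.435, 1.795, 4.06 and 2.996, so that GB-IL liver 1 alone held more *Nr1h2* than *Nr1h3* counts. The mean log2 ratio in RYGB minus that in DIO was -0.27 (1.38 ± 0.304 against 1.66 ± 0.0890, SD, n = 5 each; exact two-sided permutation test, p = 0.0317, adjusted p = 0.286 over 9 ratio tests), which does not pass the threshold. Without RYGB liver 5 the difference was -0.14. The mean log2 ratio in GB-IL was 0.812 ± 1.43 (SD, n = 4). Its difference from DIO, GB-IL minus DIO, was -0.85 (exact two-sided permutation test, p = 0.270, adjusted p = 0.889).

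Of the transporters that load HDL, *Abca1* (ENSMUSG00000015243, chromosome 4, 53030787 to 53159895, minus strand) moves cholesterol and phospholipid to lipid-poor apoA-I. It had 112, 166, 116, 128 and 140.2 CPM in the DIO livers, 269.6, 74.3, 173 and 137 CPM in the GB-IL livers and 109, 147, 179.6, 178 and 242 CPM in the RYGB livers. GB-IL liver 1 was the highest and GB-IL liver 2 the lowest of the 14, and 3 of 5 RYGB livers were above every DIO liver. Relative to DIO, GB-IL had a log2 fold change of 0.30 (SE 0.307, 95% interval -0.35 to 0.96, adjusted p = 0.538), which became -0.061 without GB-IL liver 1. RYGB had one of 0.37 (SE 0.291, 95% interval -0.25 to 0.99, adjusted p = 0.746), which became 0.23 without RYGB liver 5.

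*Abcg1* (ENSMUSG00000024030, chromosome 17, 31057675 to 31117988, plus strand) passes cholesterol on to mature HDL and is best known from macrophages. At 6.28, 7.48, 6.72, 5.09 and 5.43 CPM in the DIO livers it was the lowest of the 10 genes. The GB-IL livers had 3.47, 7.17, 19.00 and 7.86 CPM and the RYGB livers 11.3, 6.21, 8.13, 8.398 and 16.6 CPM. GB-IL liver 3 was the highest and GB-IL liver 1 the lowest of all livers, and 4 of 5 RYGB livers were above every DIO liver. On the log2 scale GB-IL differed from DIO by 0.60 (SE 0.389, 95% interval -0.23 to 1.43, adjusted p = 0.346). RYGB differed from DIO by 0.71 (SE 0.369, 95% interval -0.080 to 1.495, adjusted p = 0.608), with the smallest p of the 10 genes in that comparison (unadjusted p = 0.0747). Without GB-IL liver 3 the GB-IL value was -0.0040, with voom it was 1.09, and without RYGB liver 5 the RYGB value was 0.46. The ratio of *Abcg1* to *Abca1* counts ran from 0.0129 in GB-IL liver 1 to 0.1101 in GB-IL liver 3, beside 0.0388 to 0.0581 in DIO. None of its 3 comparisons passed the exact permutation test (adjusted p = 0.889 in each).

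Macrophage markers were set beside *Abcg1*, with which they did not vary in every liver. Of the 12 macrophage genes listed, Adgre1 was absent under that symbol from the count table, and none of the other 11 was at 0 in any liver. The summed level of these 11 ranged from 316 to 526 CPM in DIO and from 346 to 830.2 CPM in RYGB. It was 566, 865, 1716 and 603 CPM in GB-IL livers 1 to 4. All 4 GB-IL values were above every DIO value (exact two-sided permutation test, p = 0.0159, adjusted p = 0.206 over 39 marker tests). Across the 14 livers Pearson's r with this sum was 0.672 for *Abcg1*, 0.6699 for *Pltp* and 0.4099 for *Lcat*, and it lay between -0.018 and 0.248 for the other 7 genes. Both measures come from the same libraries, these r are descriptions only, and the part of macrophages in the levels of *Abcg1* and *Pltp* was not tested.

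**Figure D2:**
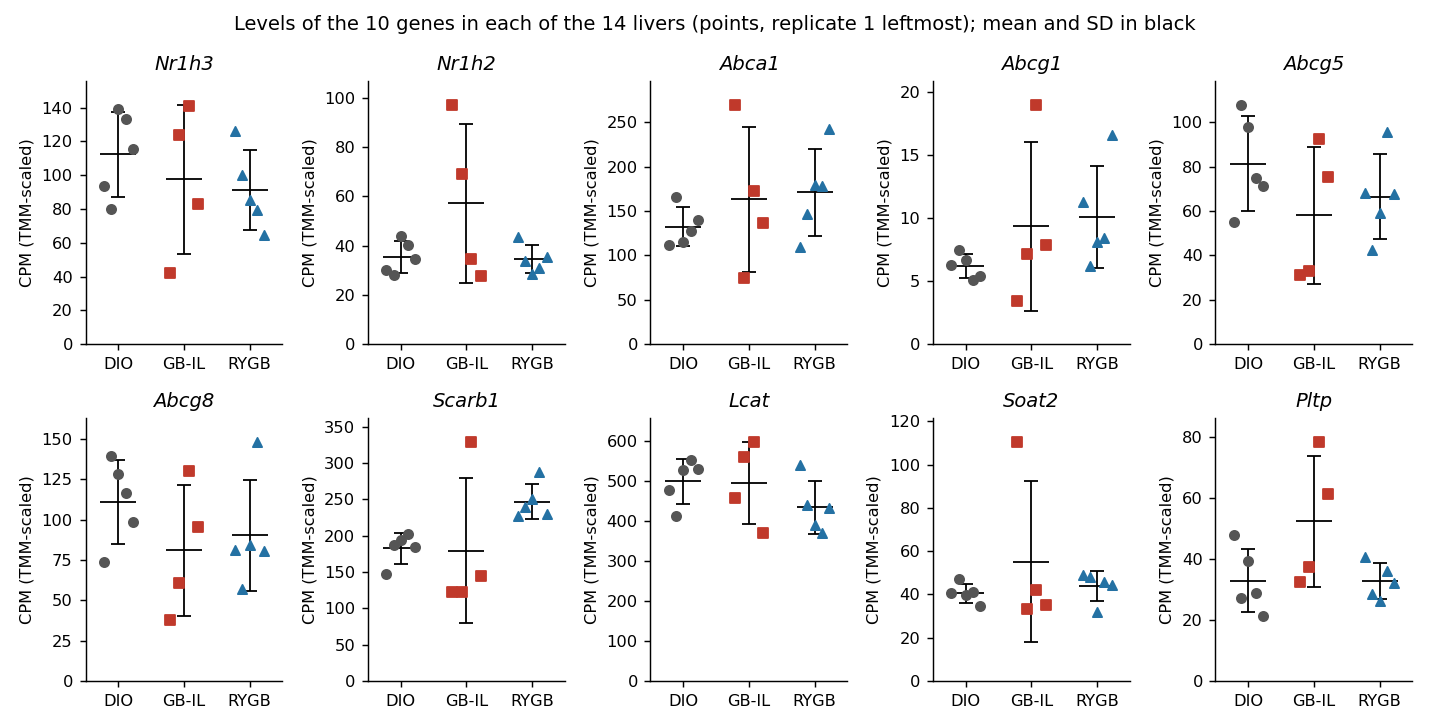
TMM-scaled CPM (y axes, from 0) of the 10 genes in each of 5 DIO, 4 GB-IL and 5 RYGB livers (x axes), with the mean as a black line and the SD as bars. GB-IL points spread from 31.2 to 92.5 CPM for *Abcg5* and from 371 to 596 CPM for *Lcat*, a smaller spread relative to the mean. For *Scarb1* the 5 RYGB points (227 to 288 CPM) lie above all 5 DIO points (147 to 203 CPM).

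The canalicular sterol transporter is a dimer, and neither half-transporter reaches the membrane without the other. *Abcg5* (ENSMUSG00000040505, chromosome 17, 84658234 to 84683011, minus strand) had 55.2, 108, 97.9, 74.8 and 71.1 CPM in the DIO livers, 31.2, 33.1, 92.5 and 75.3 CPM in the GB-IL livers and 67.9, 42.2, 59.2, 95.5 and 67.5 CPM in the RYGB livers. *Abcg8* (ENSMUSG00000024254, chromosome 17, 84676302 to 84700333, plus strand) had 73.5, 139.6, 128, 116 and 98.6 CPM in DIO, 37.8, 60.7, 130.5 and 95.6 CPM in GB-IL and 81.04, 57.3, 84.3, 148 and 80.3 CPM in RYGB. For both genes GB-IL livers 1 and 2 and RYGB liver 2 were below every DIO liver, while GB-IL livers 3 and 4 lay inside the DIO range. Relative to DIO, GB-IL had a log2 fold change of -0.49 (SE 0.333, 95% interval -1.197 to 0.22, adjusted p = 0.368) for *Abcg5*. For *Abcg8* it was -0.46 (SE 0.339, 95% interval -1.18 to 0.27, adjusted p = 0.404). In RYGB the values were -0.29 (SE 0.311, 95% interval -0.96 to 0.37, adjusted p = 0.827) for *Abcg5* and -0.30 (SE 0.317, 95% interval -0.98 to 0.38, adjusted p = 0.823) for *Abcg8*. Both genes had values below 0 in both comparisons with DIO under every alternative tried, but the groups overlapped, no value passed the FDR and the sizes moved with single livers. In GB-IL, *Abcg5* was -0.80 without liver 3, -0.29 without liver 1, -0.31 without liver 2 and -0.12 with voom. *Abcg8* was -0.78 without GB-IL liver 3, -0.23 without GB-IL liver 1 and -0.10 with voom. In RYGB, *Abcg5* was -0.46 without RYGB liver 4, -0.16 without RYGB liver 2 and -0.16 without DIO liver 2, and *Abcg8* was -0.55, -0.17 and -0.20.

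*Abcg5* and *Abcg8* went up and down together from liver to liver. Over the 14 livers Pearson's r of their log2(CPM + 0.5) was 0.953 and Spearman's rho 0.947 (permutation p = 1e-05, the smallest that 100000 permutations can give, and 2e-05; Benjamini-Hochberg adjusted over 45 pairs, 0.00045 and 0.0009). Without GB-IL livers 1 and 2, the farthest from the median of *Abcg5*, r was 0.956, within groups it was 0.944, and without GB-IL it was 0.955. Counts of *Abcg5* per count of *Abcg8* were 0.751, 0.771, 0.762, 0.643 and 0.721 in DIO, 0.826, 0.546, 0.709 and 0.788 in GB-IL and 0.837, 0.737, 0.702, 0.643 and 0.8397 in RYGB, with no comparison past the exact two-sided permutation test (adjusted p = 0.889 in each of 3). The exons of the pair overlap by 82 bases on opposite strands (3.02% of the exon bases of *Abcg5*, 2.19% of those of *Abcg8*), and reads there cannot be assigned without strand. Of all 14252 genes tested, *Abcg8* was the most like *Abcg5*, followed by *P2ry1* (r = 0.908) and *Tk1* (0.897), and after *Abcg5* the most like *Abcg8* were *Eif4b* (0.925) and *Irf2* (0.881). The genes most like *Abca1* were *Setd2* (0.937), *Setdb2* (0.933) and *Scaf8* (0.929). These r were picked as the highest of 14252 over 14 livers and are descriptions.

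**Figure D3:**
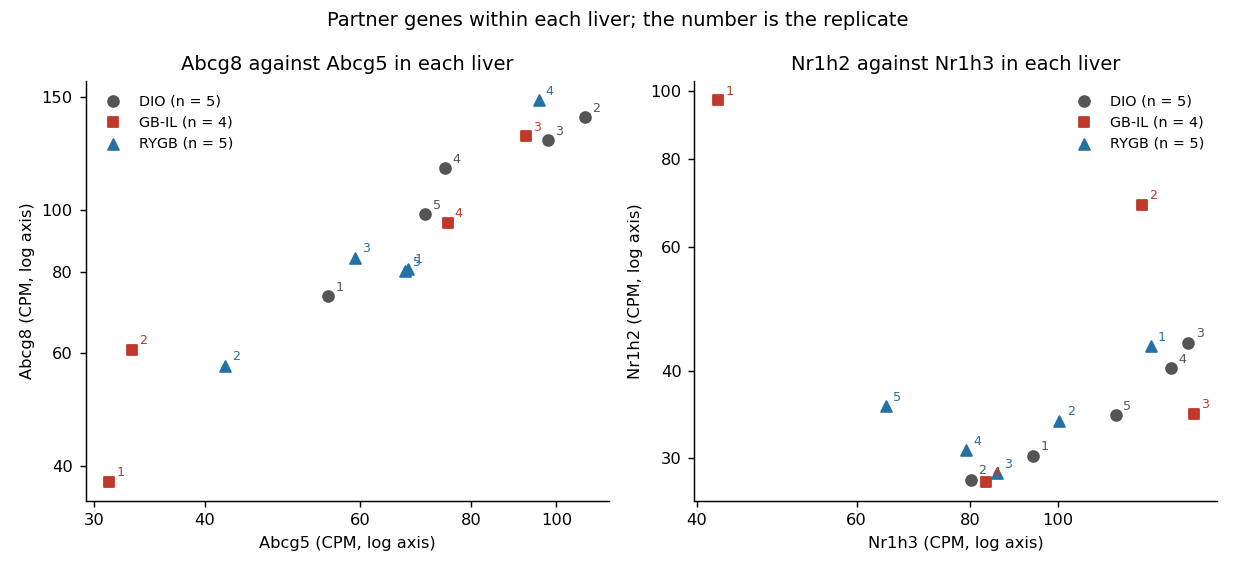
*Abcg8* against *Abcg5* and *Nr1h2* against *Nr1h3* in each liver, TMM-scaled CPM on log axes, with the group by colour and shape and the replicate as a number. *Abcg5* and *Abcg8* lie along 1 line in all groups (r = 0.953), whereas GB-IL livers 1 and 2 lie away from the other livers for the receptor pair, at 97.1 and 68.9 CPM of *Nr1h2*.

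The next genes act on circulating HDL. *Scarb1* (ENSMUSG00000037936, chromosome 5, 125277087 to 125341094, minus strand) encodes SR-BI, the receptor for selective uptake of HDL cholesteryl ester. It had 147, 187, 194, 203 and 185 CPM in the DIO livers and 227, 240.0, 250.4, 288 and 229 CPM in the RYGB livers, so that all 5 RYGB livers were above every DIO liver. In the GB-IL livers it had 123, 122, 329.6 and 144 CPM, of which 3 were below every DIO liver and liver 3 was above every liver of the series. Of the 10 genes it alone had RYGB and DIO livers that did not overlap (3.53% of all genes, 1.87% higher in RYGB). The SD of its log2 CPM was 0.181 in DIO, 0.138 in RYGB and 0.684 in GB-IL. The SE values that follow come from the fit of all 14 livers, whose estimate of spread takes in GB-IL. The log2 fold change in RYGB relative to DIO was 0.43 (SE 0.252, 95% interval -0.10 to 0.97, adjusted p = 0.6503), and with each liver left out in turn it stayed between 0.36 and 0.47 (adjusted p 0.455 to 0.996). In GB-IL it was -0.027 (SE 0.267, 95% interval -0.60 to 0.54, adjusted p = 0.959) relative to DIO, a value that turned sign under upper-quartile scaling and voom, and -0.50 (adjusted p = 0.114) without GB-IL liver 3. Relative to RYGB it was -0.46 (SE 0.269, 95% interval -1.03 to 0.11, adjusted p = 0.314), and -0.93 (adjusted p = 0.0545) without that liver and -0.19 with voom.

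*Pltp* (ENSMUSG00000017754, chromosome 2, 164839518 to 164857711, minus strand) encodes the phospholipid transfer protein, which enlarges HDL with phospholipid from triglyceride-rich particles and is a direct LXR target. Its levels were 47.7, 27.3, 39.3, 28.9 and 21.4 CPM in the DIO livers, 32.5, 37.3, 78.5 and 61.3 CPM in the GB-IL livers and 40.8, 28.6, 26.4, 35.99 and 32.2 CPM in the RYGB livers. GB-IL livers 3 and 4 were above every DIO and RYGB liver, and GB-IL livers 1 and 2 lay within the DIO range. Fitted over all livers, GB-IL showed a log2 fold change of 0.67 (SE 0.275, 95% interval 0.083 to 1.26, adjusted p = 0.169) relative to DIO. Relative to RYGB it was 0.68 (SE 0.275, 95% interval 0.090 to 1.26, adjusted p = 0.181). These were the smallest p of the 10 genes in both comparisons. Its direction in GB-IL was the same under every alternative, but its size relative to DIO was 0.41 without GB-IL liver 3 and 1.16 with voom, and relative to RYGB 0.41 without that liver, with an adjusted p between 0.0661 and 0.329 relative to DIO. RYGB differed from DIO by -0.0067 (95% interval -0.56 to 0.55), and the sign of this value turned with another scaling or filter. The exons of *Pltp* share 495 bases (19.3%) with *Ctsa* on the opposite strand, so without strand its level could include reads of *Ctsa*.

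*Lcat* (ENSMUSG00000035237, chromosome 8, 105939551 to 105943382, minus strand) encodes the enzyme that esterifies cholesterol on HDL and is made almost wholly by the liver. Levels ran from 411 to 551 CPM in DIO, from 371 to 596 CPM in GB-IL and from 371 to 539.7 CPM in RYGB. The groups overlapped, and GB-IL differed from DIO by a log2 fold change of -0.0092 (SE 0.194, 95% interval -0.42 to 0.40, adjusted p = 0.982), with the other sign under upper-quartile scaling, voom and a higher count minimum. RYGB differed by -0.20 (SE 0.183, 95% interval -0.59 to 0.19, adjusted p = 0.788). *Soat2* (ENSMUSG00000023045, chromosome 15, 102150526 to 102163469, plus strand) encodes ACAT2, which makes the cholesteryl ester packed into VLDL. It had 40.7, 47.04, 39.8, 40.9 and 34.6 CPM in the DIO livers, 111, 33.1, 42.1 and 34.9 CPM in the GB-IL livers and 48.8, 47.9, 31.7, 45.5 and 44.4 CPM in the RYGB livers. GB-IL liver 1 stood apart from the other 13 livers, which lay at 48.8 CPM or below. GB-IL differed from DIO by 0.44 (SE 0.2997, 95% interval -0.20 to 1.08, adjusted p = 0.364) on the log2 scale. This became -0.15 (adjusted p = 0.6598) without that liver and 0.15 with voom. The part of the muscle and pancreas RNA of GB-IL liver 1 in its values was not tested. In RYGB the value was 0.10 (SE 0.284, 95% interval -0.50 to 0.71, adjusted p = 0.937). Relative to RYGB, the GB-IL values of the genes not yet given were -0.068 for *Abca1*, -0.11 for *Abcg1*, -0.19 for *Abcg5*, -0.15 for *Abcg8*, 0.19 for *Lcat* and 0.34 for *Soat2* on the log2 scale, none with an unadjusted p below 0.05.

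Compared per exon length (RPKM), the order of the genes was led by *Lcat* and closed by *Abcg1* in all 3 groups. In DIO, as the mean of 5 livers (± SD for those apart), it ran from *Lcat* (372 ± 41.7 RPKM) over *Nr1h3* (44.7 ± 10.02 RPKM), *Abcg5* (29.99), *Abcg8* (29.7), *Scarb1* (21.5), *Soat2* (18.4), *Pltp* (12.9), *Abca1* (12.8) and *Nr1h2* (10.5) to *Abcg1* (0.8496 ± 0.132 RPKM). *Lcat* was apart from *Nr1h3*, and *Abcg1* from the gene above it, in each group, whereas all other neighbours in the order overlapped between livers. In RYGB *Scarb1* stood after *Nr1h3* at 29.1 ± 2.89 RPKM (SD, n = 5), and in GB-IL *Soat2* did so at 24.9 ± 16.8 RPKM (SD, n = 4).

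The spread between livers was the largest in GB-IL for all 10 genes, and so it was for 74.9% of all genes tested. The coefficient of variation (CV) of the 10 genes had a median of 17.7% in DIO, 51.5% in GB-IL and 21.7% in RYGB, beside 20.5%, 39.3% and 20.997% over all genes tested. GB-IL liver 1 had the highest of all 14 levels for *Nr1h2*, *Abca1* and *Soat2* and the lowest for *Nr1h3*, *Abcg1*, *Abcg5* and *Abcg8*, that is 7 of 10 genes at an extreme, against 44.3% of all genes. GB-IL liver 3 had the highest level of 5 genes, *Nr1h3*, *Abcg1*, *Scarb1*, *Lcat* and *Pltp*, against 8.65% of all genes. These livers differed in opposite directions for *Nr1h3* and *Abcg1*.

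**Figure D4:**
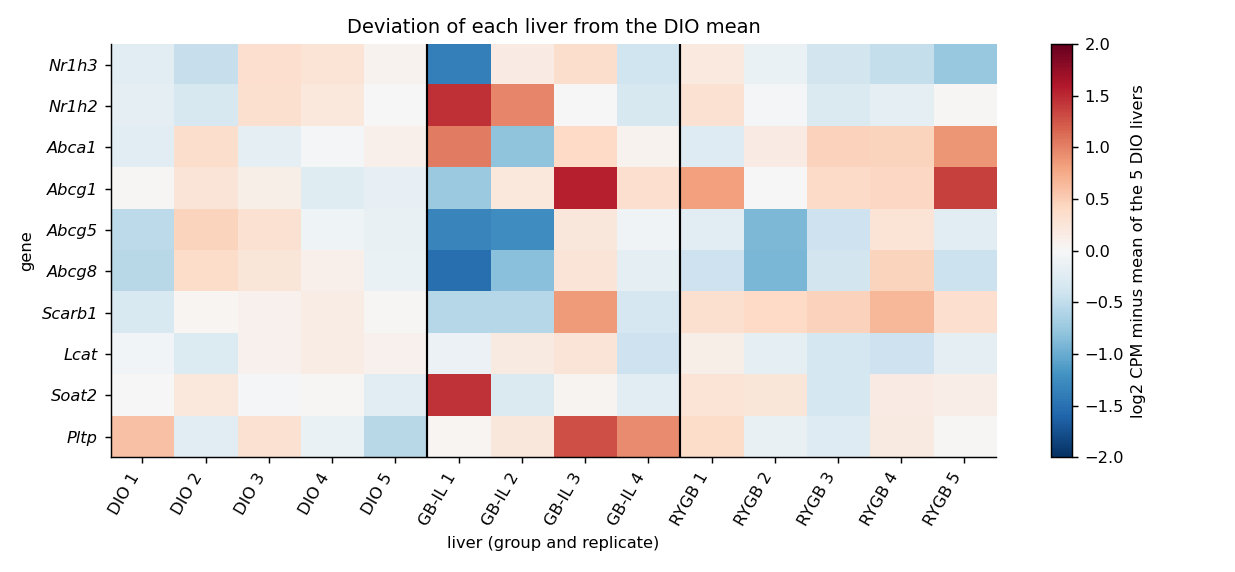
Deviation of each liver (x axis) from the mean of the 5 DIO livers for each gene (y axis), in log2 CPM by colour, red above and blue below. Among the GB-IL livers, *Soat2* and *Nr1h2* are red and *Abcg5* and *Abcg8* blue in liver 1, *Nr1h2* is red and *Abcg5* and *Abcg8* are blue in liver 2, and *Abcg1*, *Pltp* and *Scarb1* are red in liver 3, while *Scarb1* is red in all 5 RYGB livers.

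Of the 45 pairs among the 10 genes, the next highest correlations over the 14 livers were *Nr1h3* with *Lcat* (r = 0.661, rho = 0.785, adjusted permutation p = 0.1001 and 0.0317) and *Abcg1* with *Scarb1* (r = 0.634, rho = 0.574, adjusted permutation p = 0.105 and 0.304). Without GB-IL liver 1 and RYGB liver 5, r of *Nr1h3* with *Lcat* was 0.944, and without GB-IL liver 3 and RYGB liver 5, r of *Abcg1* with *Scarb1* was 0.481. The lowest were *Nr1h3* with *Abca1* (r = -0.744, rho = -0.635, adjusted permutation p = 0.0436 and 0.1799), *Nr1h2* with *Abcg5* (r = -0.677, rho = -0.349, adjusted permutation p = 0.1001 and 0.715) and *Nr1h3* with *Soat2* (r = -0.649, rho = -0.292, adjusted permutation p = 0.168 and 0.737). With the pair of livers farthest on the first gene left out, these 3 values were -0.464, 0.048 and -0.0020, so the latter 2 rest on GB-IL livers 1 and 2 and on GB-IL liver 1 and RYGB liver 5. Within groups, r of *Nr1h3* with *Abca1* was -0.7297, and without the GB-IL livers it was -0.851.

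The rest of the pathway was followed in 6 lists of genes. The list of 20 other LXR targets was chosen with earlier results of these data known, so its count of calls is a description. In GB-IL relative to DIO 3 rose at the FDR and 0 fell, beside 3.15% and 0.112% of all genes. Without regard to the FDR, 9 were higher and 11 lower there, with a list median of -0.17 on the log2 scale. In RYGB 0 were called in either direction (median -0.097). *Lpl*, lipoprotein lipase, which releases fatty acids from triglyceride-rich particles, had 18.1, 21.8, 24.8, 9.84 and 8.75 CPM in the DIO livers, 168, 178, 55.2 and 38.1 CPM in the GB-IL livers and 37.5, 40.5, 29.4, 25.9 and 86.2 CPM in the RYGB livers. All operated livers were above every DIO liver, as for 2.67% of all genes in GB-IL against DIO and 1.87% in RYGB against DIO. The difference was past the FDR in GB-IL (log2 fold change 2.72, SE 0.499, adjusted p = 0.0278) and not in RYGB (log2 fold change 1.398, SE 0.464, adjusted p = 0.457). Of 23 alternatives, voom alone called it in RYGB (1.52, adjusted p = 0.0117). *Il1rn*, the interleukin-1 receptor antagonist, had 3.77, 6.94, 9.97, 3.79 and 3.56 CPM in DIO, 28.3, 38.1, 29.5 and 6.35 CPM in GB-IL and 5.41, 2.17, 3.59, 6.58 and 2.32 CPM in RYGB, where GB-IL livers 1, 2 and 3 were above all others (log2 fold change 2.18, SE 0.4798, adjusted p = 0.0314 in GB-IL relative to DIO). *Tnfaip3*, the inhibitor of NF-κB signalling known as A20, had 4.66, 4.53, 4.17, 5.15 and 4.47 CPM in DIO, 37.3, 8.697, 15.2 and 5.42 CPM in GB-IL and 4.59, 2.02, 3.94, 4.43 and 6.33 CPM in RYGB (log2 fold change 1.85, SE 0.443, adjusted p = 0.0365 in GB-IL relative to DIO). Its GB-IL livers were all above every DIO liver, as for 2.67% of all genes. GB-IL liver 4 was the lowest of its group for all 3. The calls were lost with 1 liver left out in 7 of 14 cases for *Lpl* and *Il1rn* (each DIO liver and GB-IL livers 1 and 2; adjusted p up to 0.0942 and 0.0959) and in 10 of 14 for *Tnfaip3* (those livers and RYGB livers 1, 3 and 4; up to 0.140).

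Markers of neutrophils, lipid-associated macrophages and bile duct cells were also higher in GB-IL livers 1, 2 and 3 than in any DIO liver. Neutrophil genes summed to 108, 48.3, 258 and 5.74 CPM in GB-IL livers 1 to 4, against 4.33 to 9.998 CPM in DIO and 6.53 to 83.7 CPM in RYGB, and genes of lipid-associated macrophages to 1511, 1317, 812 and 454 CPM, against 349.5 to 558 CPM in DIO and 389 to 569 CPM in RYGB. Hepatocyte genes summed to a mean of 105570.2 ± 15819 CPM over 4 GB-IL livers and 130687 ± 4953 CPM over 5 DIO livers (± SD). Of the neutrophil genes, Ly6g was at 0 in 9 of 14 livers, Mmp8 in 2 and Retnlg in 1, and none of the 8 lipid-associated macrophage genes was at 0 in any. Cholangiocyte genes summed to 297, 239, 205 and 60.2 CPM in GB-IL, against 32.2 to 64.5 CPM in DIO and 58.2 to 69.96 CPM in RYGB. This list and that of lipid-associated macrophages share Spp1, so their sums are not separate signs. The lists of sinusoidal endothelium, stellate cells, B and plasma cells, T and NK cells, erythroid cells, skeletal muscle, intestine and pancreas had adjusted p between 0.206 and 1 (exact permutation tests). None of the 39 marker tests passed adjustment (exact permutation tests, smallest adjusted p = 0.206), which no test could do alone with these group sizes. The part of these cells in the levels of *Lpl*, *Il1rn* and *Tnfaip3* was not tested.

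In the other 5 lists edgeR's test called 0 genes in any comparison, and values of their genes are given as mean ± SD of 5 DIO, 4 GB-IL and 5 RYGB livers. Counts of their genes with an unadjusted p below 0.05 are to be read against 23.1% of all genes in GB-IL against DIO (16.7% higher, 6.43% lower) and 8.71% in RYGB against DIO (5.35% higher, 3.36% lower). Of 13 partners and coregulators of the LXRs, 4 were higher and 9 lower in GB-IL relative to DIO (median log2 fold change -0.14; 1 of 13 with an unadjusted p below 0.05, against 23.1% of all genes) and 9 were higher and 4 lower in RYGB (median 0.14; 0 of 13, against 8.71%). *Rxrg*, which encodes RXRγ, had 6.25 ± 1.43 CPM in DIO and 2.65 ± 1.96 CPM in GB-IL (log2 fold change -1.22, SE 0.415, adjusted p = 0.1099). Its groups did not overlap, as for 1.51% of all genes in this direction. *Ncor1*, a corepressor, had 77.5 ± 16.7 CPM in DIO and 55.5 ± 18.2 CPM in GB-IL (log2 fold change -0.48, SE 0.238, adjusted p = 0.236). In RYGB relative to DIO the coactivator *Ncoa6* had the smallest p of the list (log2 fold change 0.34, SE 0.161, adjusted p = 0.577). Among the other LXR targets, *Arl4c*, a small GTPase that aids export of cholesterol, came after *Lpl* in RYGB (log2 fold change 0.57, SE 0.224, adjusted p = 0.517).

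For 12 genes of the HDL particle and its remodelling, the median was -0.14 in GB-IL (3 of 12 with an unadjusted p below 0.05, 2 higher and 1 lower, a share near the 23.1% of all genes) and -0.099 in RYGB (2 of 12, both lower, against 8.71%). *Lipc*, hepatic lipase, had 151 ± 5.95 CPM in DIO, where the livers were close to each other, and 63.6 ± 52.98 CPM in GB-IL, from 16.7 to 123 CPM (log2 fold change -1.24, SE 0.464, adjusted p = 0.138). These groups did not overlap, as for 1.51% of all genes in this direction. *Procr*, the endothelial protein C receptor, had 0.825 ± 0.271 CPM in DIO and 3.59 ± 3.08 CPM in GB-IL (log2 fold change 2.11, SE 0.554, adjusted p = 0.05102). There was no overlap between these groups either, as for 2.67% of all genes in this direction. In RYGB, *Apoc3* and *Angptl4*, both inhibitors of lipoprotein lipolysis, had 1211 ± 245 CPM and 93.7 ± 49.1 CPM, beside 1911 ± 402 CPM and 203 ± 82.5 CPM in DIO. Their values were log2 fold change -0.66, SE 0.249, adjusted p = 0.507 for *Apoc3* and log2 fold change -1.11, SE 0.426, adjusted p = 0.5095 for *Angptl4*.

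Of 19 genes that handle cholesterol after uptake, 8 were higher and 11 lower in GB-IL (median -0.16; 4 higher and 1 lower of 19 with an unadjusted p below 0.05, a share near the 23.1% of all genes). *Npc2*, which carries cholesterol out of the lysosome, had 81.6 ± 15.2 CPM in DIO and 139.7 ± 47.02 CPM in GB-IL (log2 fold change 0.78, SE 0.242, adjusted p = 0.08802), and *Gramd1a*, an Aster protein that draws cholesterol from the plasma membrane, had 12.1 ± 1.51 CPM and 21.7 ± 9.77 CPM (log2 fold change 0.84, SE 0.2698, adjusted p = 0.0951). In RYGB the median was 0.15, with 0 higher and 3 lower of 19 at an unadjusted p below 0.05, against 5.35% and 3.36% of all genes. There *Osbpl2*, an oxysterol-binding protein relative, had 22.9 ± 2.38 CPM beside 32.2 ± 2.12 CPM in DIO, with no overlap between the groups, as for 3.53% of all genes and 1.66% in this direction (log2 fold change -0.49, SE 0.123, adjusted p = 0.331), and *Nceh1*, a cholesteryl ester hydrolase, had 31.8 ± 6.05 CPM beside 41.1 ± 6.62 CPM (log2 fold change -0.37, SE 0.1702, adjusted p = 0.5700).

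Of the 9 genes tested that turn cholesterol into bile acid or export bile lipids, 1 was higher and 8 lower in GB-IL (median -0.48, against 0.039 over all genes) and 7 were higher and 2 lower in RYGB (median 0.11, against 0.012). *Cyp7b1*, an oxysterol hydroxylase of the alternative bile acid pathway, had 129 ± 69.5 CPM in DIO, 51.4 ± 28.2 CPM in GB-IL and 224 ± 158 CPM in RYGB. Its log2 fold change relative to DIO was -1.33 in GB-IL (SE 0.581, adjusted p = 0.191) and 0.79 in RYGB (SE 0.533, adjusted p = 0.706). *Abcb4*, the phospholipid exporter that works beside ABCG5–ABCG8 at the canaliculus, had 268 ± 27.5 CPM in DIO and 192 ± 76.5 CPM in GB-IL (log2 fold change -0.48, SE 0.227, adjusted p = 0.2201). *Atp8b1*, the canalicular phospholipid flippase, had 41.4 ± 8.34 CPM in RYGB beside 27.04 ± 5.999 CPM in DIO (log2 fold change 0.61, SE 0.282, adjusted p = 0.569).

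Of 13 further ABC transporters of sterols and lipids, 3 were higher and 10 lower in GB-IL (median -0.42; 2 of 13 in each direction with an unadjusted p below 0.05, against 16.7% higher and 6.43% lower of all genes) and 8 were higher and 5 lower in RYGB (median 0.19; 0 of 13, against 8.71%). *Abca3*, a phospholipid transporter, had 80.2 ± 15.8 CPM in DIO and 44.8 ± 24.9 CPM in GB-IL (log2 fold change -0.84, SE 0.283, adjusted p = 0.108). *Abca5*, a lysosomal member of the family, had 4.82 ± 0.795 CPM, 9.23 ± 4.31 CPM and 6.27 ± 2.95 CPM in DIO, GB-IL and RYGB (in GB-IL log2 fold change 0.93, SE 0.344, adjusted p = 0.134; in RYGB log2 fold change 0.38, SE 0.327, adjusted p = 0.773). *Abca8b* had 88.7 ± 19.95 CPM in RYGB beside 50.4 ± 17.4 CPM in DIO (log2 fold change 0.82, SE 0.435, adjusted p = 0.616). The comparisons with DIO share the same 5 control livers.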

How the data were processed

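Livers of 5 DIO, 4 GB-IL and 5 RYGB mice were sequenced. The authors aligned reads with TopHat2 to mm10 and counted them per gene with HTSeq, and deposited raw counts for 25212 genes, used here as given. The labels name the human build hg19 beside mm10, whereas the study's methods name mm10 alone. 2 stranded kits (mRNA, total RNA) are named in the labels with no liver assigned to either. Strand setting and annotation were not given in the sources used here. Replicates are separate mice as labelled, and p-values measure the spread between them, which edgeR's fit pools over all groups, also those not compared.

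Genes were filtered with filterByExpr by group (14252 kept), scaled by TMM and tested in 1 quasi-likelihood fit of 14 livers (edgeR 4.0.16, R 4.3.3) with Benjamini-Hochberg adjustment. Alternatives used DESeq2 1.42.0, limma 3.58.1, other scalings and filters, and each liver left out. Scripts were tested on simulated data with equal spread in all groups, which leaves out the larger spread of the GB-IL livers. CPM of genes are TMM-scaled, marker sums use CPM of total counts, and RPKM divides by GENCODE M21 exon length (24701 identifiers matched). Ratios and sums of 13 marker lists went through two-sided exact permutation tests, which cannot give a p below 0.0159 for 4 against 5 livers or 0.00794 for 5 against 5, and correlations through 100000 permutations on log2(CPM + 0.5). Promoters come from RefSeq (GRCm38.p6).

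The 10 genes, the pathway lists and the marker lists were chosen with earlier results of these data known. Named were all 10, each pathway gene past the FDR or otherwise the 2 with the smallest p per list in each comparison with DIO, and the 3 genes most like *Abcg5*, *Abcg8* and *Abca1*. 1 result under this rule is not reported here.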

Additional observations from a re-analysis of the deposited data

Results flagged for a closer look

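In 3 of the 30 sets formed by 10 genes and 3 groups, 1 liver lay far from the others of its group by Dixon's test, which chance gives in about 1 of 20 sets. *Scarb1* was at 329.6 CPM in GB-IL liver 3, where the other 3 GB-IL livers had 122 to 144 CPM. *Soat2* was at 111 CPM in GB-IL liver 1, beside 33.1 to 42.1 CPM in the other GB-IL livers. *Soat2* was also at 31.7 CPM in RYGB liver 3, beside 44.4 to 48.8 CPM in the other RYGB livers.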

How the results depend on the processing

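Of 30 fold changes of the 10 genes, 16 kept their direction in all 23 alternatives, and 2 of 690 alternative values passed the FDR, both of *Nr1h2* without GB-IL liver 4. Under each scaling the median of all genes lay within 0.0948 of 0 on the log2 scale. The number of genes called was less stable. In GB-IL against DIO it was 1292 with DESeq2, 0 with the compared groups only and 0 to 3572 with 1 liver left out, in RYGB against DIO 97 with DESeq2, 1690 with voom, 33 with the compared groups only and 0 to 5 with 1 liver left out, and in GB-IL against RYGB 845 with DESeq2, 115 with voom, 51 with no filter and 0 to 3120 with 1 liver left out. The causes were not tested. With 1 liver left out, 0 to 1 of the 10 genes was called in either comparison of GB-IL. The 10 genes had at least 66 counts in each library, so counting error adds to the spread of the lowest, *Abcg1*, and the 4 or 5 livers a group limit every interval.

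Other scalings, filters and tests turned the direction of values that passed no threshold. In GB-IL against DIO, *Scarb1* was 0.0080 with upper-quartile scaling and 0.26 with voom, and *Lcat* was 0.026, 0.025 and, with a mean of at least 50 counts, 0.0053. In RYGB against DIO, *Nr1h2* was 0.051 with total counts, and *Pltp* was 0.013 with upper-quartile scaling, 0.079 with total counts, 0.19 with voom, 0.0081 with no filter and 0.0052 with a mean of at least 50 counts. In GB-IL against RYGB, *Nr1h3* was -0.025 with total counts, and voom gave 0.52 for *Abcg1*, 0.098 for *Abcg5* and 0.12 for *Abcg8*.

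The replicate numbers were not taken as pairs in the main fit. The 13 pairs of livers with a shared number had correlations of -0.356 to 0.370, 2 of them over 0.1. Pairs with unlike numbers were not set beside them, so whether livers were matched cannot be told. A fit with the replicate block called 1 gene in GB-IL against DIO, and gave 0.038 for *Pltp* in RYGB against DIO and -0.023 for *Nr1h3* in GB-IL against RYGB.

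With 1 liver left out, log2 fold changes that turned ranged from -0.43 to 0.036 for *Nr1h3*, -0.061 to 0.53 for *Abca1*, -0.0040 to 0.86 for *Abcg1*, -0.50 to 0.10 for *Scarb1*, -0.11 to 0.099 for *Lcat* and -0.15 to 0.61 for *Soat2* in GB-IL against DIO, from -0.13 to 0.048 for *Nr1h2*, -0.13 to 0.17 for *Pltp* and -0.28 to 0.073 for *Tnfaip3* in RYGB against DIO, and from -0.13 to 0.34 for *Nr1h3*, -0.44 to 0.16 for *Abca1*, -0.71 to 0.15 for *Abcg1*, -0.48 to 0.098 for *Abcg8* and -0.26 to 0.51 for *Soat2* in GB-IL against RYGB. Log2 ratios ranged from -0.11 to 0.086, -0.0058 to 0.093 and -0.15 to 0.047 for *Abcg5* over *Abcg8* in the 3 comparisons in that order, from -0.97 to 0.099 for *Nr1h3* over *Nr1h2* in GB-IL against RYGB, and from -0.18 to 0.85 and -0.47 to 0.56 for *Abcg1* over *Abca1* in GB-IL against DIO and against RYGB. Differences of summed marker CPM ranged in GB-IL against DIO from -17.8 to 13.1 for sinusoidal endothelium, -1.44 to 1.27 for T and NK cells, -0.295 to 328 for muscle and -12.9 to 125 for pancreas, in RYGB against DIO from -4826 to 3425 for hepatocytes, -4.73 to 50.2 for lipid-associated macrophages, -2.53 to 0.179 for B and plasma cells and -0.297 to 0.0612 for muscle, and in GB-IL against RYGB from -90.4 to 106 for stellate cells, -1.33 to 0.427 for B and plasma cells, -0.151 to 2.56 for T and NK cells, -350.5 to 342 for erythroid cells, -0.0852 to 328 for muscle, -55.6 to 9.11 for intestine and -5.14 to 133 for pancreas. No ratio or marker test passed an adjusted p of 0.05 in any alternative. The exact tests cannot give a p low enough for a single test to pass alone after adjustment, so this does not show that the results are stable.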
